A study of Mus musculus with 4 samples.

Results

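The 10 genes described here build or accompany the cornified envelope, the cross-linked protein shell of terminally differentiated keratinocytes: Sprr1a, Sprr1b, Ivl, Krt1, Krt10, Krtdap, Sbsn, Dmkn, Calm4 and Spink5. They were chosen by measured values of these same libraries, as keratinocyte differentiation genes with Sprr1a singled out for its lower level in progenitor-like cells lacking both signals, so their levels are a description and no test was run on them. All 10 were found among the 31053 genes of the count tables, and all 10 were detected in more than 5 cells, as were 23568 genes in all.

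Thymic epithelial cells (TECs) of 6-week-old C57BL/6 mice, sorted as EpCAM+CD45-TER119-, were profiled by droplet-based scRNA-seq to see what the loss of RANKL and of CD40 signaling changes in them. WT-Control mice received control rat IgG, and WT-RANKL-Ab mice received a single subcutaneous dose of the neutralizing anti-RANKL antibody OYC1 (5 mg/kg) at 4 weeks of age, 2 weeks before sacrifice. Cd40-/- Control and Cd40-/- RANKL-Ab mice carried a germline Cd40 deletion, present in every cell and not only in TECs, and received the control IgG or the antibody at the same ages. Where 4 values follow each other without names, the WT pair comes first and then the Cd40-/- pair, each with control IgG before antibody. Each condition is 1 library made from 3 pooled mice, so nothing between conditions could be tested and every interval below is a 95% interval of counting error only.

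In skin, suprabasal keratinocytes first switch to the keratin pair Krt1 and Krt10 and secrete small proteins such as those encoded by Krtdap, Sbsn and Dmkn. Later, precursors such as involucrin (Ivl) and the small proline-rich proteins (Sprr1a, Sprr1b) are cross-linked by transglutaminases beneath the plasma membrane. In the thymic medulla these genes are known from keratinocyte-like mimetic cells and Hassall's corpuscles, which arise late in the life of medullary TECs (mTECs), and Aire+ mTECs also express many tissue-restricted antigens at low frequency.

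Of the 10 genes, 6 lie in 2 clusters of the genome (GRCm38, the build of the count tables). Sprr1b (chr3:92436809-92438789), Sprr1a (chr3:92483952-92485895) and Ivl (chr3:92570902-92573735), all on the minus strand, fall within 136.9 kb of the epidermal differentiation complex, a span with 6 protein-coding genes. Sbsn (chr7:30751471-30756134), Dmkn (chr7:30763756-30781063) and Krtdap (chr7:30787896-30791097) lie next to each other on the plus strand within 39.6 kb, with no other protein-coding gene between them. Krt1 is at chr15:101845426-101850794 and Krt10 at chr11:99385254-99389364, both on the minus strand, and Calm4 at chr13:3837757-3838673 on the plus strand. Sbsn overlaps Tmem147os and Calm4 overlaps Gm40655 on the same strand, so part of their counts could belong to those neighbours, and Krt10 overlaps Gm11940 on the other strand.

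The 250 bases before the transcription start are shown for 5 of the genes, taken from RefSeq promoters on GRCm38.p6, because these are the members whose levels differed most between libraries (Sprr1a, Sprr1b and Ivl) and least (Krt10), and the member whose second-highest class was an immature mTEC class (Krtdap). They are written 5′ to 3′ on the gene's own strand. Capitals mark TATAAA, the TATA box, and TGANTCA, which covers the AP-1 consensus TGA(C/G)TCA but also TGATTCA and TGAATCA, the copy in Sprr1b. The windows are chr3:92485882-92486131 (minus) for Sprr1a, chr3:92438780-92439029 (minus) for Sprr1b, chr3:92573736-92573985 (minus) for Ivl, chr7:30787655-30787904 (plus) for Krtdap and chr11:99389365-99389614 (minus) for Krt10.
Sprr1a: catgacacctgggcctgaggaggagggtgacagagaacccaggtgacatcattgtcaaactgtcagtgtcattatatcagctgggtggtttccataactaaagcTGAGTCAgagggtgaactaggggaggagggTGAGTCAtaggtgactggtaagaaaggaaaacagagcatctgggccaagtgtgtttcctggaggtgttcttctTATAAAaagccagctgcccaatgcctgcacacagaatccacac
Sprr1b: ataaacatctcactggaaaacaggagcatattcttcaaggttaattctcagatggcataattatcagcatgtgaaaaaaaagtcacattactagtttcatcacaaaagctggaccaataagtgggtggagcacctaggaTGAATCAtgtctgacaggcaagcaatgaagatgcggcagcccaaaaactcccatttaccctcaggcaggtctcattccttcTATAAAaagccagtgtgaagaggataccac
Ivl: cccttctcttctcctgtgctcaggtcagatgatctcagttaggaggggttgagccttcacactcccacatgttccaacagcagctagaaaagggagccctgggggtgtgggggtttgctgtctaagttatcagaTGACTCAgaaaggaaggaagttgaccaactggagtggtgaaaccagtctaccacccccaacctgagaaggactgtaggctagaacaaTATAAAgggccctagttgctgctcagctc
Krtdap: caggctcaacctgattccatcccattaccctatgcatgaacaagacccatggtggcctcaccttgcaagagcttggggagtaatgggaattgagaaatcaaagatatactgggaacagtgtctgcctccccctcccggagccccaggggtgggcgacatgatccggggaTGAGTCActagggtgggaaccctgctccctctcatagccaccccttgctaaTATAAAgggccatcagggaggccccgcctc
Krt10: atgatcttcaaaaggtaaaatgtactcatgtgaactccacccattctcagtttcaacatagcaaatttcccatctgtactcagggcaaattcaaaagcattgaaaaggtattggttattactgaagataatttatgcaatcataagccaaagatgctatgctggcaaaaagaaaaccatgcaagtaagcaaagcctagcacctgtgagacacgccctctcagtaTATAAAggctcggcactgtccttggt
TGANTCA was present in 6 of the 8 members with an entry (Krt1 and Spink5 had none) and in 7.82% of 27025 genes in windows of the same length, searched on both strands. Sprr1a held 2 copies, with 139 and 109 bases between motif and start, whereas 0.338% of all windows held 2 or more. Sprr1b, Ivl and Krtdap held 1 copy each, with 104, 109 and 74 bases in between, and Sbsn 1 copy with 112. Dmkn has 3 annotated starts, a pair of them sharing 1 copy with 82 and 84 bases in between and the third with 1 copy and 75 bases, while Krt10 and Calm4 held none. TATAAA was present in Sprr1a, Sprr1b, Ivl, Krt10 and Krtdap, 5 of 8 members, and in 14.3% of genes. These are matches of letters, and no binding was measured.

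After removing barcodes with fewer than 200 genes or more than 25% mitochondrial UMIs, the 4 libraries held between 2082 cells (Cd40-/- RANKL-Ab) and 10218 cells (WT-Control), with median depths of 6086 to 7622 UMIs (unique molecular identifiers, 1 per captured transcript) per cell. Cd40 was measured at 110.0 UMIs per 1000000 (CPM) in WT-Control, 28.8 CPM in WT-RANKL-Ab and 5.75 and 4.75 CPM in the Cd40-/- pair, and whether the counted 3′ end lies in the deleted part is not given in the sources used here. The Cd40-/- libraries shared 205 cell barcodes, 9.85% of the cells of Cd40-/- RANKL-Ab, whereas other pairs of libraries shared 0.237% to 1.42%. These 205 barcodes carried 26.8% of the UMIs of Cd40-/- RANKL-Ab but 0.460% of those of Cd40-/- Control, so ratios of that library are also given without them. Epithelial markers (Epcam, Krt8, Krt18, Foxn1) were detected in all libraries, summing to 3985 to 6708 CPM.

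Over all sorted cells, the envelope precursors showed the largest differences between libraries. Sprr1a, a small proline-rich cross-bridging precursor, was measured at 164 CPM (WT-Control), 40.0 CPM (WT-RANKL-Ab), 141 CPM (Cd40-/- Control) and 8.14 CPM (Cd40-/- RANKL-Ab). The control-IgG libraries lay closest to each other (log2 ratio -0.22, -0.26 to -0.18), RANKL-Ab alone was lower and the library without both signals lowest, at a log2 ratio to WT-Control of -2.03 (-2.10 to -1.97) in WT-RANKL-Ab and -4.33 (-4.57 to -4.10) in Cd40-/- RANKL-Ab. Sprr1b, its neighbour and paralog, followed the same order with 26.4 CPM, 2.47 CPM, 19.96 CPM and 0 UMIs, the last at least 168-fold lower than WT-Control when 3 UMIs are allowed for a count of 0. Ivl, a precursor laid down early in the envelope, had the fewest UMIs of the 10 genes, with 3.33, 0.617 and 2.88 CPM in the first 3 libraries. It had 0 UMIs in Cd40-/- RANKL-Ab, at least 21.2-fold lower than WT-Control. Without the shared barcodes Sprr1a stood at -3.99 (-4.23 to -3.75) in that library, and Sprr1b and Ivl were at least 123.3-fold and 15.6-fold lower.

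The suprabasal keratins differed from each other. Krt10, the type I partner of the pair, did not share the pattern of the precursors and stood at 54.0, 51.3, 68.9 and 44.5 CPM. Its log2 ratio to WT-Control was -0.07 (-0.14 to -0.01), 0.35 (0.29 to 0.41) and -0.28 (-0.39 to -0.17) in the other libraries, all well inside 2-fold. Krt1, the type II partner, was measured at 13.7, 7.96, 24.9 and 3.65 CPM, highest in Cd40-/- Control and lowest in Cd40-/- RANKL-Ab. Its log2 ratio was -0.78 (-0.95 to -0.61) in WT-RANKL-Ab, 0.87 (0.76 to 0.97) in Cd40-/- Control and -1.90 (-2.27 to -1.55) in Cd40-/- RANKL-Ab. Without the shared barcodes the last value was -1.65, and that of Krt10 -0.18.

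Among the secreted proteins, Krtdap and Dmkn were kept in Cd40-/- RANKL-Ab better than in WT-RANKL-Ab. Krtdap, which encodes keratinocyte differentiation-associated protein, was measured at 205, 102, 189 and 169 CPM, and Dmkn (dermokine) at 87.5, 47.4, 97.7 and 65.6 CPM. Their log2 ratios to WT-Control in Cd40-/- RANKL-Ab were -0.28 (-0.33 to -0.22) and -0.42 (-0.50 to -0.33). Without the 205 shared barcodes Krtdap stood at 212 CPM in that library and its ratio turned to 0.05 (-0.0018 to 0.11), and Dmkn at 78.4 CPM (-0.16). Sbsn (suprabasin) followed the precursors more closely, with 55.5, 26.4, 42.4 and 15.3 CPM and a log2 ratio of -1.86 (-2.03 to -1.69) in the last, or -1.59 without the shared barcodes.

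Calm4, a calcium-binding calmodulin-like protein of the epidermis, and Spink5, the serine protease inhibitor LEKTI that restrains shedding of the cornified layer, had few UMIs left in Cd40-/- RANKL-Ab. Calm4 was measured at 38.8, 19.6, 33.0 and 4.54 CPM, and Spink5 at 34.0, 35.5, 43.4 and 2.56 CPM. Spink5 therefore differed little between the libraries with at least 1 signal left, its log2 ratio to WT-Control being 0.07 (-0.02 to 0.15) in WT-RANKL-Ab, and stood at -3.73 (-4.17 to -3.32) in Cd40-/- RANKL-Ab. The remaining values rested on few cells: the 49 Spink5 UMIs of that library came from 9 cells and the 87 Calm4 UMIs from 11 cells, with 30 in 1 of them. Without the shared barcodes the log2 ratios were -3.31 for Spink5 and -2.66 for Calm4.

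**Figure D1:**
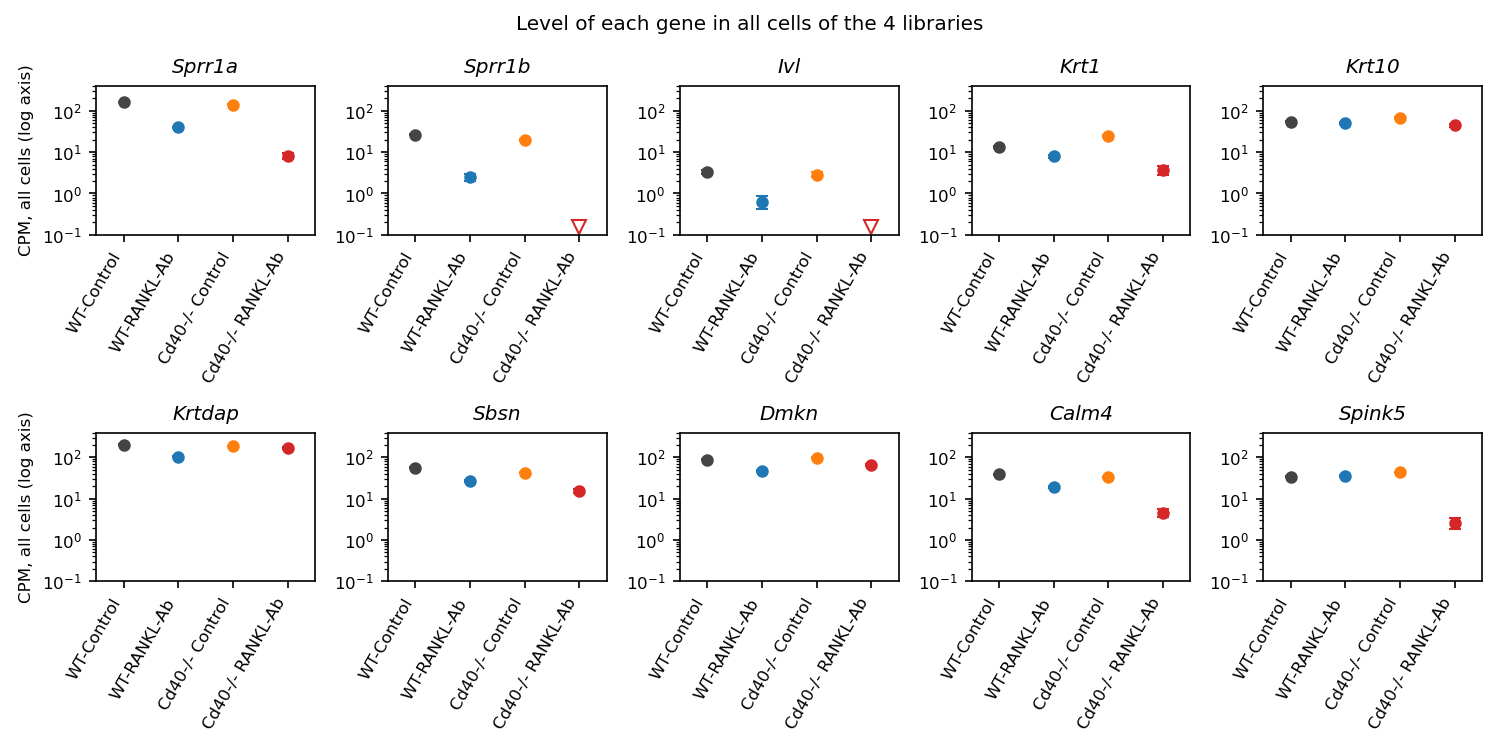
Level of each of the 10 genes over all kept cells of the 4 libraries, in UMIs per 1000000 on a log axis, with exact Poisson intervals; an open triangle marks the limit that 3 UMIs set where a gene had 0. Krt10 stays between 44.5 and 68.9 CPM, while Sprr1a spans 164 CPM (WT-Control) to 8.14 CPM (Cd40-/- RANKL-Ab).

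To count genes past a fixed size, a gene whose UMIs in the pair compared reached 50 was called when its level with 10 CPM added differed at least 2-fold. Against WT-Control, 5 of the 10 members were lower in Cd40-/- RANKL-Ab (Sprr1a, Sprr1b, Sbsn, Calm4 and Spink5), beside 5.44% of 18077 genes, and this contrast is among those that chose the members. Their median log2 ratio was -1.08, or -1.56 with Sprr1b and Ivl set at their limits, and the median over all genes tested was 0.00. In WT-RANKL-Ab 2 members were lower (Sprr1a and Sprr1b, beside 3.15% of genes), with a median of -0.75, and in Cd40-/- Control none was, beside 0.288% of genes, with a median of -0.08. Against Cd40-/- Control, Cd40-/- RANKL-Ab had 6 members lower, the same 5 and Krt1, beside 4.53% of genes. The comparisons share the WT-Control library, or the Cd40-/- RANKL-Ab library, and are not independent of each other. Markers of myeloid and B cells moved with them: the summed level of Lyz2, C1qa, Cd79a and Ptprc, all 4 detected in each library, was 450.1, 114, 404 and 63.7 CPM, and that of the hemoglobin genes Hbb-bs and Hba-a1 was 128, 1.67, 30.1 and 0.418 CPM. T cell-like cells went the other way, at 0.489%, 2.499%, 3.02% and 7.40% of cells, as did cells with markers of both T cells and cortical TECs, at 0.186%, 1.03%, 2.03% and 3.27%. Their part in these results was not tested. In such sums over all cells, fewer cells of a type and less RNA per cell cannot be told apart, so the levels were next resolved by cell class.

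Cells were placed in classes by sets of markers that contained none of the 10 genes, and the class names rest on those markers alone. The keratinocyte-like markers include other genes of cornification, so high levels of the members in that class are not independent of the gate. In WT-Control, 9 of the 10 members had their highest level in the 89 keratinocyte-like cells, which are 0.871% of the library and were gated on Grhl1, Grhl3, Cnfn, Lypd3, Dsg1a, Cdsn, Lor and Flg2. There, Krtdap was measured at 7679.5 CPM (7495 to 7868), Dmkn at 2078 CPM, Calm4 at 2029.9 CPM and Sprr1a at 1783 CPM (1694 to 1875). Krt10 stood at 1689 CPM, Sbsn at 1666 CPM, Spink5 at 972 CPM, Krt1 at 304 CPM and Ivl at 102 CPM. Single cells weighed on these levels: 1 cell held 988 of the 6560 Krtdap UMIs and 1 held 284 of the 1523 Sprr1a UMIs. The levels without that cell were 6650 CPM for Krtdap and 1456 CPM for Sprr1a, outside the counting intervals. The class contained 9.75% of all Sprr1a UMIs and 33.7% of all Krtdap UMIs of WT-Control.

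The genes parted in the classes that came next. Sprr1a was next highest in microfold-like cells (601 CPM, 575 to 629), followed by Aire+ mTEC-like (237 CPM) and neuroendocrine-like cells (227 CPM), whose intervals overlap. The microfold-like level was 526 CPM without 1 cell that held 251 of 1939 UMIs. For Krtdap the next highest class was CCL21+ mTEC-like cells, an immature mTEC class, at 387 CPM (378 to 397), and for Dmkn ciliated-like cells at 259 CPM (229 to 291). Spink5 was second in microfold-like cells (135 CPM), not separable from enterohepatic-like cells (118 CPM). Krt10 had no second class that stood out as measured. Progenitor-like, microfold-like, tuft-like and ungated cells all lay between 58.7 and 59.0 CPM with overlapping intervals. However, the cell with the most Krt10 held 95 of 190 UMIs in microfold-like and 94 of 253 in tuft-like cells of WT-Control. Without the top cell of each class these stood at 29.7 and 37.1 CPM. Progenitor-like and ungated cells then stood at 58.0 and 54.7 CPM. Sprr1b was the exception to the keratinocyte-like maximum, with 57.7 CPM in ciliated-like, 57.1 CPM in Aire+ mTEC-like and 51.5 CPM in keratinocyte-like cells, 3 values that the intervals do not separate.

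**Figure D2:**
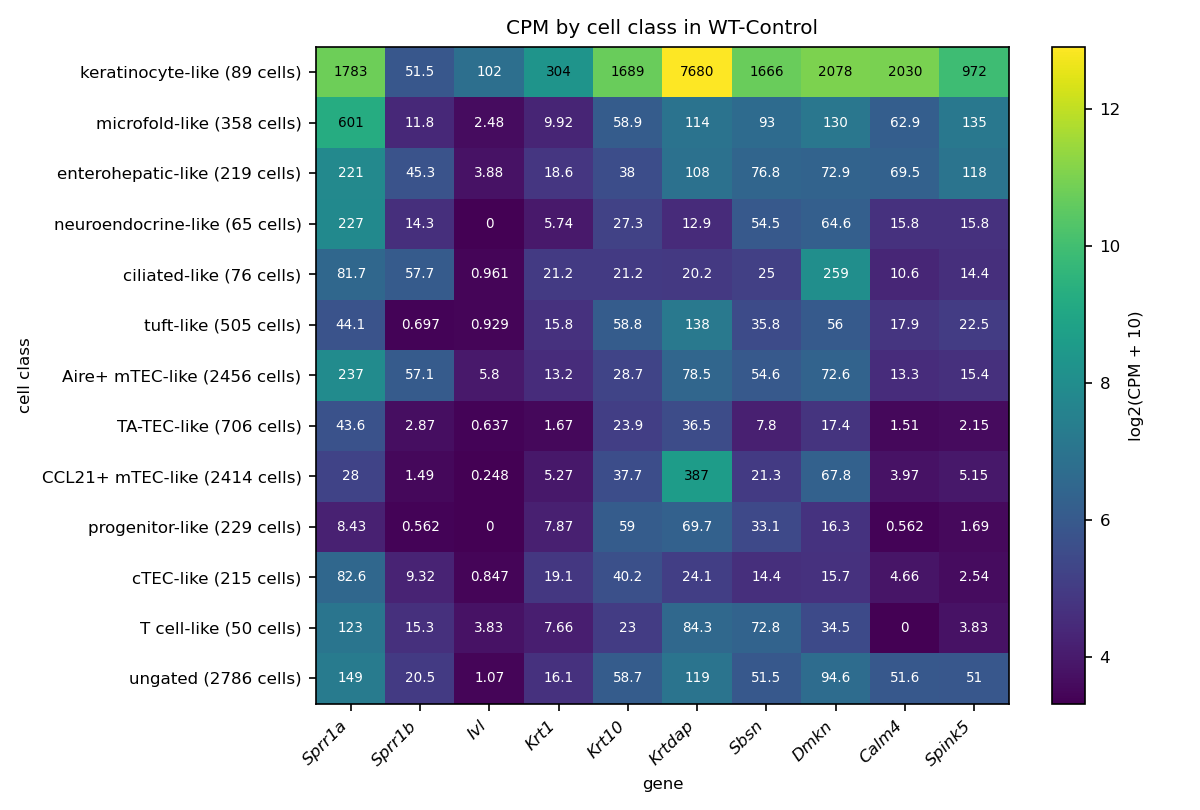
Level of each gene in each cell class of WT-Control, in UMIs per 1000000 on a log colour scale. The keratinocyte-like row is brightest, that is highest, for 9 of the 10 genes, and Krtdap keeps 387 CPM in CCL21+ mTEC-like cells.

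Because a class of 89 cells is sensitive to how it is drawn, the cells were also clustered with the 10 genes left out. The keratinocyte-like clusters then held 365 cells of WT-Control, and the levels were lower, Sprr1a at 811 CPM, Krtdap at 3298 CPM and Krt10 at 985 CPM. In the other libraries the same clusters held 162, 369 and 8 cells, against 17, 70 and 3 cells by the gate.

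Within single cells, the members gathered in few cells. A keratinocyte-like cell of WT-Control held UMIs of a median of 6 of the 10 genes, and 62.9% of these cells held 5 or more, compared with 1.59% of Aire+ mTEC-like and 0.290% of CCL21+ mTEC-like cells. Of all cells, 187 of 10218 held 5 or more in WT-Control, 48 of 7164 in WT-RANKL-Ab, 153 of 8591 with the Cd40 deletion alone and 6 of 2082 without both signals. Depth enters such counts, and the keratinocyte-like cells of WT-Control had a median of 7823 UMIs, near the 7622 of all its cells.

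Sprr1a was present in 1662 WT-Control cells, but 127 cells held 50% of its 15623 UMIs. Krt10 was present in more cells, 2063, with fewer UMIs in all (5148). Of 318 WT-Control cells with Sprr1b, 72.0% (66.7 to 76.9) also held Sprr1a, which was found in 16.3% of all cells, although the Sprr1b cells were deeper (median 11274 against 7622 UMIs). Within Aire+ mTEC-like cells, where depths were closer (median 11810 against 11337 UMIs), 80.1% (72.9 to 86.2) of 151 Sprr1b cells held Sprr1a, found in 26.3% of the class. Krt10 was not as closely tied to Sprr1b: 18.5% (12.7 to 25.7) of these 151 cells held it, beside 18.8% of the class.

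To compare shares of cells across depths, each cell was thinned to 1000 UMIs and shallower cells were left out (74 to 806 per library). Sprr1a was then found in 6.72%, 1.59%, 6.32% and 0.548% of cells. Without thinning the shares were 16.3%, 4.52%, 13.5% and 2.02%. Krt10 was found in 3.58%, 4.48%, 3.87% and 3.64% of thinned cells, a pattern unlike that of Sprr1a. T cell-like cells, which should not make these proteins, set a floor. Of 42 thinned WT-Control cells, 2.38% to 4.76% held Krt10 or Sprr1a (upper limits 12.6% and 16.2%), at a median depth before thinning of 2448 UMIs. The Sprr1a share rests on 2 cells, and before thinning 1 cell held 24 of 32 Sprr1a UMIs. The part of free RNA or doublets in these counts was not tested. Shares near or below that floor are not read as expression. Among them are the all-cell shares of Krt10. T cell-like cells of the antibody libraries held no Sprr1a after thinning (0 of 141 in WT-RANKL-Ab and 0 of 138 in Cd40-/- RANKL-Ab, upper limits 2.58% and 2.64%). The all-cell Sprr1a shares of these libraries lie within those limits and are not read as expression either. Cd40-/- Control had 1 of 136 such cells with Sprr1a (0.735%, upper limit 4.03%). The WT-Control share of 6.72% lies within its upper limit of 16.2%.

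The UMIs of each gene came from different classes in different libraries. In WT-Control, Aire+ mTEC-like cells gave 44.1% of Sprr1a UMIs and 66.2% of Sprr1b UMIs, and in Cd40-/- Control 40.1% and 49.6%. In WT-RANKL-Ab, where this class had 234 cells beside 2456 in WT-Control, it gave 9.04% of Sprr1a UMIs, and in Cd40-/- RANKL-Ab, where 3 such cells were left, none. For Dmkn, CCL21+ mTEC-like cells gave 13.1% of UMIs in WT-Control and 73.1% in Cd40-/- RANKL-Ab, and for Krtdap 32.0% and 65.5%. Progenitor-like cells, marked by Ackr4, Dcn, Serpinf1, Fmod, Gas1 and Pdpn, gave 2.04% of Krt10 UMIs in WT-Control and 25.6% in Cd40-/- RANKL-Ab, where they were 2.24% and 20.03% of cells. The 3 keratinocyte-like cells of Cd40-/- RANKL-Ab held 39 of its 156 Sprr1a UMIs and 42 of its 49 Spink5 UMIs.

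**Figure D3:**
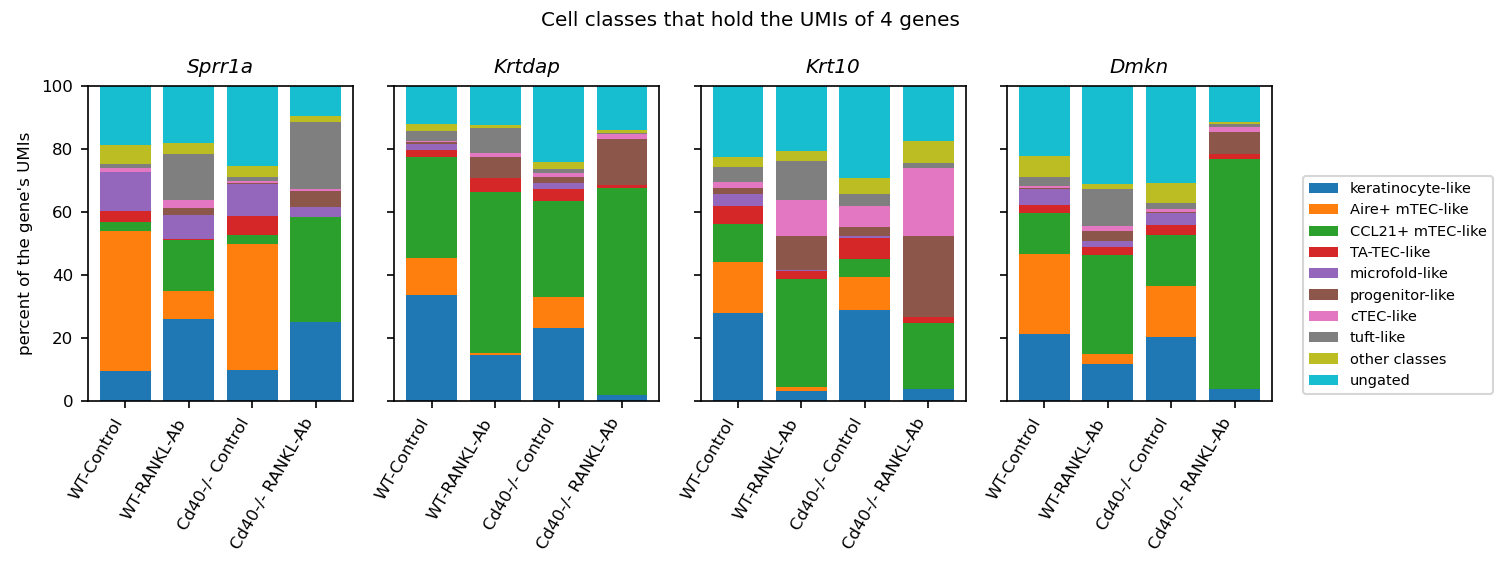
Percent of the UMIs of Sprr1a, Krtdap, Krt10 and Dmkn that each cell class contributed in each library. Aire+ mTEC-like cells give 44.1% of Sprr1a UMIs in WT-Control and none in Cd40-/- RANKL-Ab, where CCL21+ mTEC-like cells give 73.1% of Dmkn UMIs.

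Levels were then compared inside classes of at least 50 cells. In WT-RANKL-Ab, 5 of 10 members were at least 2-fold lower in Aire+ mTEC-like cells than in WT-Control (Sprr1a, Sprr1b, Krt1, Krtdap and Sbsn), beside 2.78% of 14902 genes, and Spink5 was higher, beside 0.892%. Over the 3 libraries with enough cells, Sprr1a was measured at 237, 105.5 and 281 CPM, and Krtdap at 78.5, 27.6 and 91.5 CPM. Spink5 went the other way, with 15.4, 55.8 and 30.2 CPM, and still 38.5 CPM in WT-RANKL-Ab without the 1 cell that held 29 of its 93 UMIs. Sprr1b rested on 1 cell there, 36 of 39 UMIs, and stood at 1.82 CPM without it, against 57.1 CPM in WT-Control. In Cd40-/- Control none of the 10 was 2-fold lower, beside 0.242% of genes. Only 22.1% of the gated Aire+ cells fell in clusters named Aire+, and with clusters in place of gates 1 member was lower in WT-RANKL-Ab, none was higher and Krtdap turned to a log2 ratio of 0.21, so these values hold for the gated cells alone.

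CCL21+ mTEC-like cells held 602 to 2529 cells in every library. Krtdap was measured there at 387, 149, 556 and 459 CPM. In WT-RANKL-Ab it was lower than in WT-Control, at a log2 ratio of -1.38 (-1.45 to -1.31). It was the 1 of 8 members counted as lower there, beside 0.651% of genes. Cd40-/- RANKL-Ab stood at 0.24 for Krtdap against WT-Control, or -0.073 with clusters in place of gates. Against Cd40-/- Control, which shares its genotype, Krtdap was lower in it too, at -0.28 (-0.35 to -0.20). Thinned to 1000 UMIs, 23.1%, 8.94%, 29.6% and 23.2% of these cells held Krtdap, again lowest in WT-RANKL-Ab. Without thinning the shares were 41.5%, 19.8%, 50.4% and 43.4%. Dmkn was measured at 67.8, 42.7, 151.5 and 199 CPM, and it was the 1 member at least 2-fold higher in Cd40-/- Control, beside 0.525% of genes, and in Cd40-/- RANKL-Ab, beside 1.51%. With clusters in place of gates neither of the last 2 was past 2-fold, and with TMM factors Dmkn was not past it in Cd40-/- Control.

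The class divides by the level of Mgp and Gpx3 into 3321 cells above the limit and 3424 below. In the cells above it Krtdap stood at 425, 116, 572 and 456 CPM and Dmkn at 59.7, 15.9, 128 and 143 CPM. In the cells below it Krtdap stood at 336, 173, 536 and 464 CPM and Dmkn at 78.7, 62.9, 180.4 and 295 CPM, so the order of the libraries for Krtdap was alike on both sides, with 1119 cells near the limit. Krt10 in the whole class was level, at 37.7, 50.3, 37.5 and 38.8 CPM. Fibroblast markers (Pdgfra, Col1a1, Lum, Col3a1), all 4 detected in each library, summed in this class to 10.1, 6.27, 35.7 and 42.9 CPM, higher in both Cd40-/- libraries as Dmkn was, and their part in this was not tested. Without the shared barcodes Dmkn stood at 189 CPM and Krtdap at 461 CPM in Cd40-/- RANKL-Ab.

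Sprr1a in CCL21+ mTEC-like cells shows how much single cells weigh. It was measured at 28.0, 18.4, 37.6 and 11.3 CPM. In WT-RANKL-Ab, however, 241 of its 314 UMIs came from 1 of 2529 cells, and in Cd40-/- RANKL-Ab 40 of 52 from 1 of 602 cells. Without that cell the levels were 4.28 and 2.61 CPM, both lower than in the control-IgG libraries. The control-IgG levels were 24.2 and 33.0 CPM when their own top cell was left out. T cell-like cells of the control-IgG libraries, which should lack the gene, held 31.9 and 31.3 CPM on the same basis. The Sprr1a differences in CCL21+ mTEC-like cells are therefore not read as differences in expression. Spink5 in CCL21+ mTEC-like cells was measured at 5.15, 6.32, 17.7 and 0.434 CPM, at a log2 ratio to WT-Control of 1.78 (1.36 to 2.20) in Cd40-/- Control. The most in 1 cell were 22 of its 83 UMIs, 29 of 108, 32 of 122 and 1 of 2. Against Cd40-/- Control, Sprr1a and Spink5 were the 2 of 6 members at least 2-fold lower in Cd40-/- RANKL-Ab, beside 1.96% of genes, and with clusters in place of gates none was.

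In keratinocyte-like cells only the control-IgG libraries held at least 50. Krt1, at 304 CPM (WT-Control) and 767 CPM (Cd40-/- Control), was the 1 of 10 members at least 2-fold higher in Cd40-/- Control, beside 3.39% of genes. One cell held 140 of its 468 UMIs in Cd40-/- Control, and without it the level was 542 CPM. Sprr1a was measured at 1783 and 1505 CPM and Krtdap at 7679.5 and 4789 CPM. The 17 cells of WT-RANKL-Ab held 508 Sprr1a UMIs (3988 CPM), 225 of them in 1 cell, and the 3 cells of Cd40-/- RANKL-Ab held 39 (1604 CPM, 1141 to 2193), numbers too small for a comparison.

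Microfold-like cells, which express genes of intestinal antigen-sampling epithelium, also held more Spink5 in WT-RANKL-Ab than in WT-Control. Spink5 was measured at 135 CPM in 358 WT-Control cells, 619.8 CPM in 61 WT-RANKL-Ab cells and 197 CPM in 222 cells with the Cd40 deletion alone. One of the 61 cells held 75 of the 228 Spink5 UMIs, and without it the level was 430.5 CPM. Sprr1a in microfold-like cells stood at 601, 397 and 676 CPM, in the opposite order between the WT libraries. A single microfold-like cell was left in Cd40-/- RANKL-Ab.

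**Figure D4:**
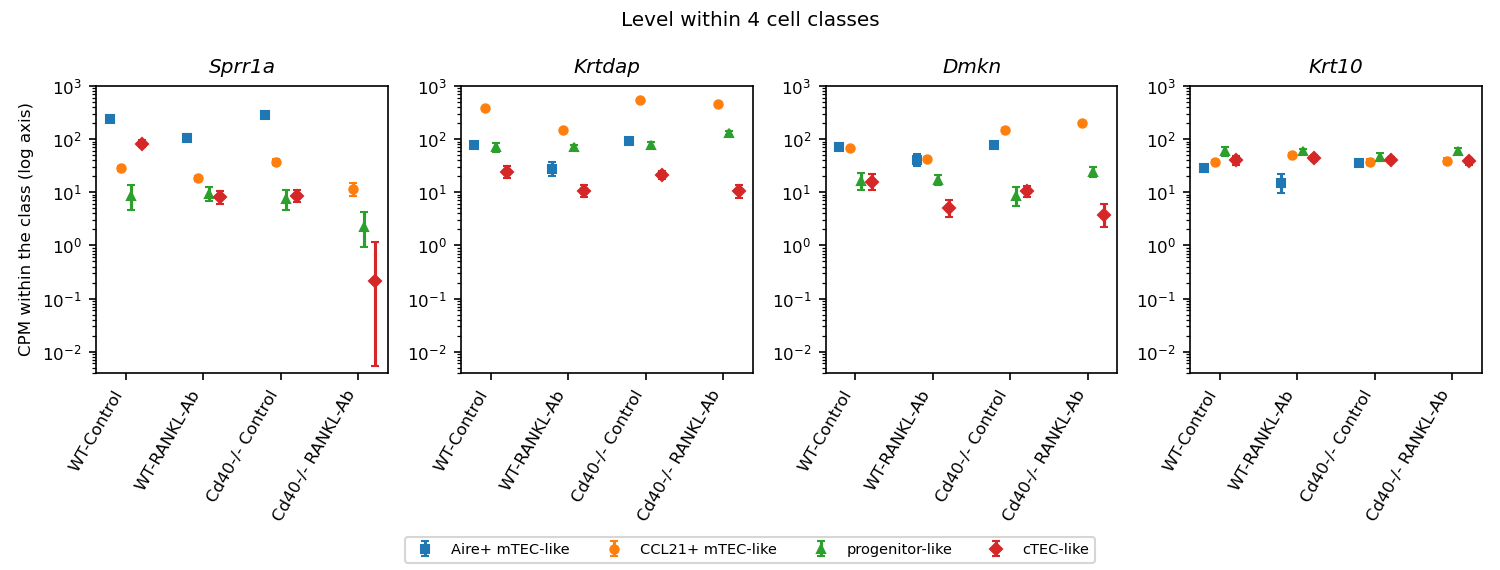
Levels of Sprr1a, Krtdap, Dmkn and Krt10 inside Aire+ mTEC-like, CCL21+ mTEC-like, progenitor-like and cTEC-like cells of each library, in UMIs per 1000000 on a log axis, with exact Poisson intervals; classes of fewer than 50 cells in a library are left out. Krtdap in CCL21+ mTEC-like cells is lowest in WT-RANKL-Ab (149 CPM), and Sprr1a in progenitor-like cells lies between 2.18 and 9.47 CPM.

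How far the class make-up of a library alone would move each gene was computed by giving every class its WT-Control level and changing only the class shares. For Cd40-/- RANKL-Ab, 5 members came out at least 2-fold lower in this way (Sprr1a, Sprr1b, Ivl, Calm4 and Spink5), beside 19.3% of 18077 genes. Sprr1a was placed at a log2 ratio of -1.39 from shares alone, beside -4.33 as measured. The reverse, WT-Control shares with the levels of Cd40-/- RANKL-Ab, could be computed over the 6 classes with at least 50 cells in both, which held 46.7% of WT-Control UMIs. In that calculation 7 members were at least 2-fold lower, counting Sprr1b and Ivl at 0, beside 26.4% of genes, and Sprr1a stood at -2.63.

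Krtdap and Dmkn did not follow: at fixed shares they stood at 0.16 and 0.38 in Cd40-/- RANKL-Ab, and from shares alone at -0.43 and -0.97. Krt10 was small on both counts, at -0.24 and -0.17. For WT-RANKL-Ab, shares alone lowered 3 members at least 2-fold, beside 12.8% of genes, and levels alone 4, beside 18.2%, over 9 classes with 93.9% of UMIs. Sprr1a was placed at -1.08 by shares and -1.21 by levels, beside -2.03 as measured, and Spink5 at -0.83 and 1.38, which offset each other. For Cd40-/- Control neither calculation lowered any member 2-fold, beside 0.00524% and 2.85% of genes, over 11 classes with 97.2% of UMIs. Ungated cells, a mixture, enter these sums as 1 class.

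**Figure D5:**
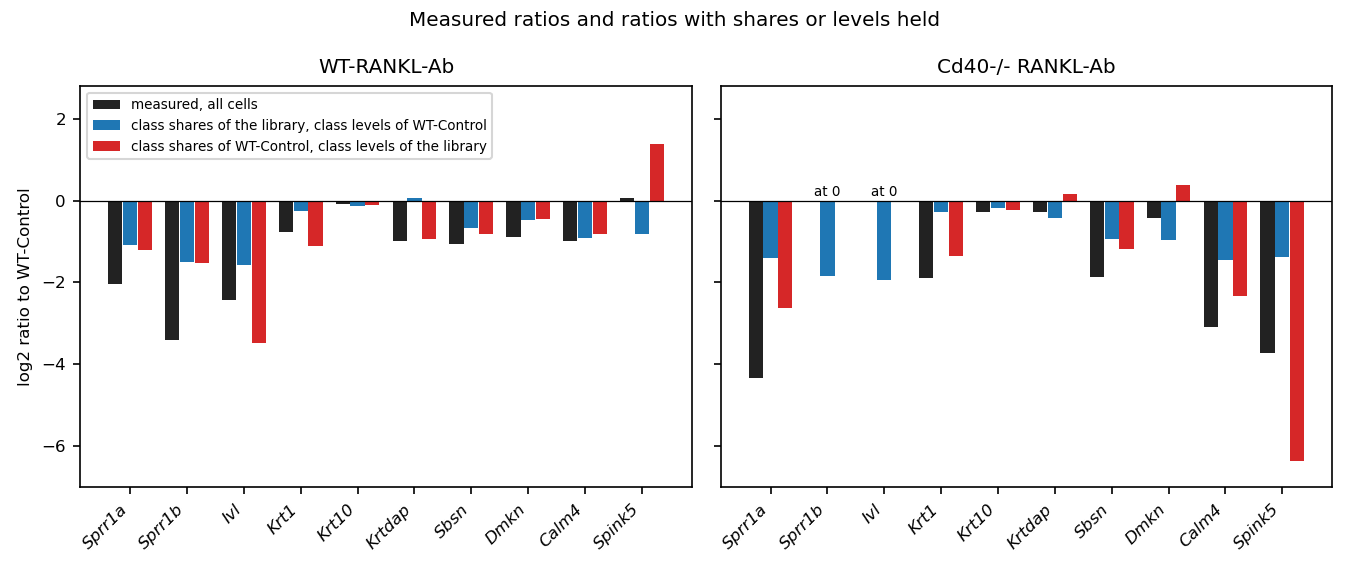
Log2 ratio to WT-Control of each gene in WT-RANKL-Ab and Cd40-/- RANKL-Ab as measured over all cells, from class shares alone and from class levels alone (bars; "at 0" marks Sprr1b and Ivl, which had no UMI). In Cd40-/- RANKL-Ab, Dmkn stands at -0.97 from shares and 0.38 from levels, whereas Sprr1a is negative in both.

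Progenitor-like cells, the class in which Sprr1a was named, held few UMIs of it. By the gates, 229 cells held 15 Sprr1a UMIs in WT-Control (8.43 CPM) and 672 held 44 in WT-RANKL-Ab (9.47 CPM). In the Cd40-/- pair, 463 cells held 22 UMIs with control IgG (7.42 CPM) and 417 held 8 with the antibody (2.18 CPM). The level was lowest in Cd40-/- RANKL-Ab, at a log2 ratio to WT-Control of -1.95 (-3.39 to -0.62), and in WT-Control this class had the lowest Sprr1a level of the 13 with at least 50 cells. Without the shared barcodes 390 cells of Cd40-/- RANKL-Ab held 4 UMIs (1.25 CPM), a log2 ratio of -2.75 (-4.80 to -1.10). T cell-like cells, which should lack the gene, held 32 UMIs in 50 cells of WT-Control (122.6 CPM, or 31.9 CPM without 1 cell with 24) and 66.2 CPM in Cd40-/- Control, with 0 UMIs in both antibody libraries. The control levels of progenitor-like cells lie below these, so the ratio is not read as a difference in expression. With 23 UMIs in both libraries it did not reach the 50 UMIs asked for, and with 10 CPM added its log2 ratio was -0.60, rank 386 from the lowest of 16632 genes. None of the 4 members tested in this contrast was 2-fold lower, beside 1.2% of 8615 genes.

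With clusters in place of gates the ratio was further from 0, and 1 cell carried much of it. A cluster of 49 cells led by hemoglobin and endothelial genes (Hbb-bs, Hba-a1, Gpihbp1, Cldn5) was left unnamed although its highest mean marker level was that of the progenitor-like set. The progenitor-like cluster held 137 Sprr1a UMIs in 144 cells of WT-Control (128 CPM) and 5 UMIs in 289 cells of Cd40-/- RANKL-Ab (2.002 CPM). With 10 CPM added this is a log2 ratio of -3.52, rank 2 of 7352 genes. One cell held 112 of the 137 UMIs, 81.8%, and without the cell with the most Sprr1a in each library the ratio was -1.64, with 23.7 CPM left in WT-Control. By the gates the same removal gave -0.46, with 5.69 CPM left. That cell had 16022 UMIs, among them 56 of Ccl25 and 88 of Krt18, which mark cortical TECs and epithelium, 5 of Dcn, 4 of Ackr4, 4 of Serpinf1 and none of Aire, and the gates placed it with cTEC-like cells. The same cell held 112 of the 195 Sprr1a UMIs of WT-Control cTEC-like cells, which went from 82.6 to 35.4 CPM without it.

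The genes at the ends of this contrast by the gates were others. Ubd, a ubiquitin-like modifier, was lowest at 505 CPM (WT-Control) and 28.7 CPM (Cd40-/- RANKL-Ab) (log2 ratio -3.74 with 10 CPM added), followed by Wfdc17 (-3.29) and Irf7 (-3.25), an interferon regulatory factor. The highest were the stress-induced transcription factor Atf3 at 40.5 and 185 CPM (1.95), Gm12840 (1.91) and Zfp36 (1.76), which binds AU-rich transcripts. Among the members, Krtdap stood at 69.7, 71.0, 77.3 and 130.2 CPM in the class (log2 ratio 0.90, 0.61 to 1.20, in Cd40-/- RANKL-Ab, or 0.82 with 10 CPM added), but with 10 CPM added the ratio was 0.37 with a wider gate margin and -0.061 with clusters. Krt10 stood at 59.0, 58.8, 46.2 and 59.5 CPM. Fibroblast markers summed to 62.9, 51.9, 39.1 and 52.9 CPM in the class, with 3 of 4 detected in WT-Control and all 4 elsewhere, and epithelial markers to 3480.5 to 3628 CPM.

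Other genes of cornification were taken from a list of 70 fixed by role, with the members left out. Against WT-Control, 18 of 67 tested were at least 2-fold lower over all cells of Cd40-/- RANKL-Ab and 3 were higher, 13 of 67 were lower in WT-RANKL-Ab and none higher, and none of 68 passed in either direction in Cd40-/- Control. Of all genes, the shares lower are those given above, and 3.51%, 1.33% and 0.633% were higher in Cd40-/- RANKL-Ab, WT-RANKL-Ab and the Cd40-/- library with control IgG. The 18 were spread over stratified keratins (5 of 12), envelope precursors (4 of 10), desquamation proteases and inhibitors (4 of 10), the Sprr family (3 of 11), cross-linking (1 of 8) and regulators (1 of 9).

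By the most abundant gene of each role, in UMIs summed over the 4 libraries, Cst6, a cystatin that inhibits cathepsins, was measured at 354, 102, 240.5 and 62.1 CPM, and Sprr2a3 at 57.2, 17.7, 65.9 and 13.1 CPM, although reads of Sprr2a1, Sprr2a2 and Sprr2a3 cannot be told apart with certainty. Rptn (repetin), an envelope precursor of the S100 fused type, resembled Spink5, with 23.8, 18.1, 29.4 and 1.72 CPM. Krt17 (2764, 3785, 2231 and 2603 CPM) and Sox9 (88.7, 149, 104 and 106 CPM) did not follow the members, and Elovl4, an enzyme of very-long-chain barrier lipids, stood at 11.9, 11.8, 15.5 and 7.05 CPM. Perp, a desmosomal protein, was higher at 264, 504, 288 and 618 CPM. The other two that were higher in Cd40-/- RANKL-Ab, named after their values were seen, were Dsp at 143, 275, 270.5 and 400.3 CPM and Trp63 at 60.6, 122, 93.3 and 222 CPM, genes of desmosomes and of the basal epithelial state. In progenitor-like cells Cst6 stood at 46.1, 8.18, 25.6 and 6.28 CPM and Sprr2a3 at 21.3, 16.8, 68.8 and 8.46 CPM, 70 of the 204 UMIs of the third value being in 1 cell.

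Across 38 points, each a class of at least 50 cells in 1 library, and 15329 genes, the genes whose level on the log2 scale was most like that of Sprr1a were Serpinb2 (Pearson r = 0.93), Cdkn2b (0.93) and Asprv1 (0.92), none of them a member. For Krt10 they were Efna3 (0.92), Ivl (0.89) and Rapgefl1 (0.89). Among the 10 members the closest pair was Sbsn and Calm4 (0.90) and the least alike Sprr1b and Krt10 (0.35), with Sprr1a and Krt10 at 0.40. Points of 1 library share its depth and free RNA, and the 2 keratinocyte-like points have the highest level of most members, so these values are a description without a test.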

How the data were processed

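TECs from 4 conditions (1 library of 3 pooled mice each) were profiled with droplet-based scRNA-seq. Per the methods, the authors trimmed the reads (Fastp) and used the mm10 reference in Cell Ranger (5.0.1 in the methods and file headers, 5.1 in the submitters' processing notes). The matrices the authors deposited hold raw UMI counts per gene and cell barcode, not normalized.

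Barcodes under 200 genes or over 25% mitochondrial UMIs were dropped. No doublet caller was run. Each cell was placed in a class when the mean scaled marker level of that class passed 0.5, led the next class by 0.25 and rested on at least 3 detected markers (2 for CCL21+, Aire+ and parathyroid-like cells). UMIs were summed by class and library and scaled to CPM. Intervals are exact at 95% (Poisson for CPM, Clopper-Pearson for shares, conditional binomial for ratios) and cover counting error only. No condition was tested, as each had 1 library. Coordinates are GENCODE M21 on GRCm38.

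The members and lists were chosen with earlier results of these data known. Besides the members, the genes named are the 3 lowest and 3 highest in progenitor-like cells (Cd40-/- RANKL-Ab against WT-Control), the 3 most like Sprr1a and Krt10, the most abundant gene of each pathway group and pathway genes past 2-fold in progenitor-like cells. Alternatives were a mitochondrial limit of 13%, clusters or a wider margin of 0.5 for gates, totals without Ccl21a, TMM factors (edgeR 4.0.16), means over cells, cells of at least 2000 UMIs, removal of the 5% of cells with the most UMIs, 1 CPM added, other UMI minimums, thinning to 2000 UMIs and, added after seeing the data, removal of shared barcodes or of the cell with the most Sprr1a. R 4.3.3 and Python 3.11.15 with scikit-learn 1.9.0, igraph 0.11.9, scipy 1.17.1 and matplotlib 3.10.9 were used, and the scripts were tested on simulated data.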

Additional observations from a re-analysis of the deposited data

Results flagged for a closer look

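Antibody against control IgG was compared between mice with and without Cd40 in 60 pairs of a member and a class. In 4 of them the log2 ratios had opposite signs with counting intervals that excluded 0 on both sides. With 1 library per condition the difference between the genotypes was not tested.

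Dmkn in CCL21+ mTEC-like cells stood at -0.67 (-0.80 to -0.53) with Cd40 and 0.39 (0.27 to 0.52) without it. The Cd40-/- value turned to -0.54 with clusters in place of gates, so the opposite signs hold for the gated cells alone. The other three were in tuft-like cells, of which Cd40-/- RANKL-Ab held 58. Krt10 stood at 0.29 with Cd40 and -1.54 without it, Calm4 at 0.75 and -1.10, and Spink5 at 0.84 and -2.80. The Cd40-/- values of Calm4 and Spink5 are bounds from the limit of 3 counts, since neither gene had a UMI in the 58 cells. Single cells carried much of these values: in WT-Control tuft-like cells 1 cell held 94 of 253 Krt10 UMIs, 1 held 51 of 77 Calm4 UMIs and 1 held 40 of 97 Spink5 UMIs, and in Cd40-/- Control 1 held 85 of 177 Krt10 UMIs. Once the top cell of each library was left out, Krt10 in tuft-like cells stood at 37.1, 58.4, 54.6 and 29.3 CPM. Calm4 then stood at 6.07, 18.3, 10.1 and 0 CPM, and Spink5 at 13.3, 24.8, 38.1 and 0 CPM. Each difference between antibody and control kept its direction, and none was tested.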

How the results depend on the processing

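No paired analysis was possible because each condition is a single library, which leaves no degrees of freedom for a block.

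Most all-cell ratios kept their direction: of 324 under an alternative, 257 stayed within their interval, 62 moved and 5 changed sign. Clusters and a wider gate margin, with 36 of these ratios each, could not move them, since classes do not enter sums over all cells. Of 218 counts of members, over all cells, within classes or at fixed class shares, 203 stayed within 1.5 times. The all-cell counts among them also could not move with clusters or margin. Among the other results, 74 of 280 levels, 46 of 120 shares of cells, 44 of 196 ratios at fixed class shares (1 more changed sign) and 78 of 804 ratios by class (11 more changed sign) moved. A mean over cells moved 27 and turned 1 of 36 all-cell ratios and moved 24 of 40 levels, and leaving out the 5% of cells with the most UMIs moved 23 of 40 levels. Of 78 ratios by class, clusters in place of gates moved 28 and turned 8. With clusters in place of gates, the log2 ratio to WT-Control in Aire+ mTEC-like cells changed sign for Krtdap in WT-RANKL-Ab (0.21, from -1.51), and in Cd40-/- Control for Sprr1b (1.73), Krt10 (-0.74) and Spink5 (-0.84). In CCL21+ mTEC-like cells it did so for Calm4 in Cd40-/- Control (0.89), for Krtdap in Cd40-/- RANKL-Ab (-0.073) and for Dmkn when the Cd40-/- pair is compared (-0.54). It also did so for Krtdap in progenitor-like cells of Cd40-/- RANKL-Ab (-0.071), and at fixed class shares for Krt10 in Cd40-/- RANKL-Ab (0.45). Counts of members past 2-fold then became 2 lower (from 1) in CCL21+ cells of WT-RANKL-Ab, 0 higher (from 1) in both Cd40-/- libraries, 0 lower (from 2) when the Cd40-/- pair is compared, 1 lower (from 5) and 0 higher (from 1) in Aire+ cells of WT-RANKL-Ab, 1 lower (from 0) in progenitor-like cells, and 1 (from 3) from class shares alone in WT-RANKL-Ab. A wider gate margin gave 1 lower member in CCL21+ cells of Cd40-/- RANKL-Ab.

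TMM factors turned Dmkn in Cd40-/- Control to -0.025 over all cells and -0.028 in Aire+ cells, Krtdap in Cd40-/- RANKL-Ab against Cd40-/- Control to 0.0032, and left 0 members higher in CCL21+ cells of Cd40-/- Control. A mean over cells turned Calm4 in Cd40-/- Control to 0.031 over all cells and 0.37 in keratinocyte-like cells, and Krtdap in Aire+ cells to -0.079. Adding 1 CPM gave 4 lower members over all cells of WT-RANKL-Ab, 2 higher in CCL21+ cells of Cd40-/- Control, 2 lower in those of Cd40-/- RANKL-Ab and 2 higher in keratinocyte-like cells. A minimum of 200 UMIs left 1 lower member (from 2) in CCL21+ cells when the Cd40-/- pair is compared. Without the shared barcodes Krtdap in Cd40-/- RANKL-Ab stood at 0.054 against WT-Control and 0.17 against Cd40-/- Control. Beyond what each setting changes by construction, the causes were not tested. Depth limits Ivl, Krt1 and Sprr1b most, and in Cd40-/- RANKL-Ab all members of classes with few cells.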
